A study of Mus musculus with 6 samples.

Results

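A set of 9 genes of blood clotting and clot removal (F13a1, F10, F5, F7, F3, Plau, Plaur, Thbd and Serpinb2) was followed in single leukocytes of the arthritic mouse knee. They were chosen by symbol, and each of the 9 matched 1 of the 20394 genes in the count table. The cells were CD45+ synovial cells of male C57BL/6 mice, bought at 8 weeks of age and older when used, with antigen-induced arthritis, a model in which mice immunized with 10 μg methylated bovine serum albumin (mBSA) in complete Freund's adjuvant receive 100 μg mBSA into the knee on day 21. All 6 samples shared this immunization and challenge, and tissue was taken 3 days after the challenge, at the peak of inflammation. From day 21 the mice were injected intraperitoneally with PBS as vehicle (2 samples) or with 300 μg PEPITEM, a peptide with a PEG-amide modification (4 samples).

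The 32953 cell barcodes end in a library number from 1 to 6, and no label ties a number to a sample. Vehicle and PEPITEM were therefore not compared, no test between groups was made, and the 6 libraries are given as samples of unknown treatment by their lowest, median and highest value. They held 2919 to 9345 cells and 47273569 to 123367661 UMIs (unique molecular identifiers, each standing for 1 captured RNA molecule), with medians of 9923 to 14001 UMIs per cell. A total of 138 barcodes occurred in more than 1 library. The cells formed 32 clusters, of which 30 took the name of a cell class from its markers, marked by "-like". The 9 genes and the other genes of their pathway were left out of the clustering and of the naming. The sort selected CD45+ cells, but 161 fibroblast-like cells were also present (33539 CPM of fibroblast markers), as were classes usually found in bone marrow, such as pro-B and pre-B cell-like (2657) and granulocyte precursor-like (934) cells. Levels are given as CPM, the UMIs of a gene per 1000000 UMIs of the cell class, with exact Poisson 95% intervals in brackets, which cover counting error only. They were compared between cell classes and not between genes.

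Clotting runs as a cascade of proteases that are made inactive and activate each other in turn. Tissue factor, the product of F3, binds factor VII (F7) and starts the cascade, factor X (F10) with its cofactor factor V (F5) turns prothrombin into thrombin, and factor XIII, whose A subunit comes from F13a1, cross-links the fibrin that thrombin makes. Thrombomodulin (Thbd) turns thrombin toward anticoagulation. Fibrin is removed by plasmin, which urokinase (Plau) releases from plasminogen, often on cells that carry the urokinase receptor (Plaur), and plasminogen activator inhibitor 2 (Serpinb2) blocks urokinase. Most circulating clotting factors are made by the liver, and fibrin is deposited in inflamed joints.

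Among leukocyte classes of at least 100 cells, each gene had its highest pooled level in a myeloid class. Many of these classes are myeloid, and the share of all genes highest in a myeloid class was not computed, so this is a description only. F13a1 was highest in resident macrophage-like cells at 1639.5 CPM. Classical monocyte-like cells held the highest levels of F10 (243 CPM), Thbd (98.3 CPM) and Serpinb2 (23.4 CPM). Late neutrophil-like cells held the highest levels of F5 (366 CPM), Plaur (1046 CPM) and F3 (14.7 CPM). F7 was highest in inflammatory macrophage-like cells (11.5 CPM) and Plau in mast cell-like cells (205 CPM). The fibroblast-like cells exceeded each of these leukocyte classes in pooled F3, Plau and Thbd.

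**Figure D1:**
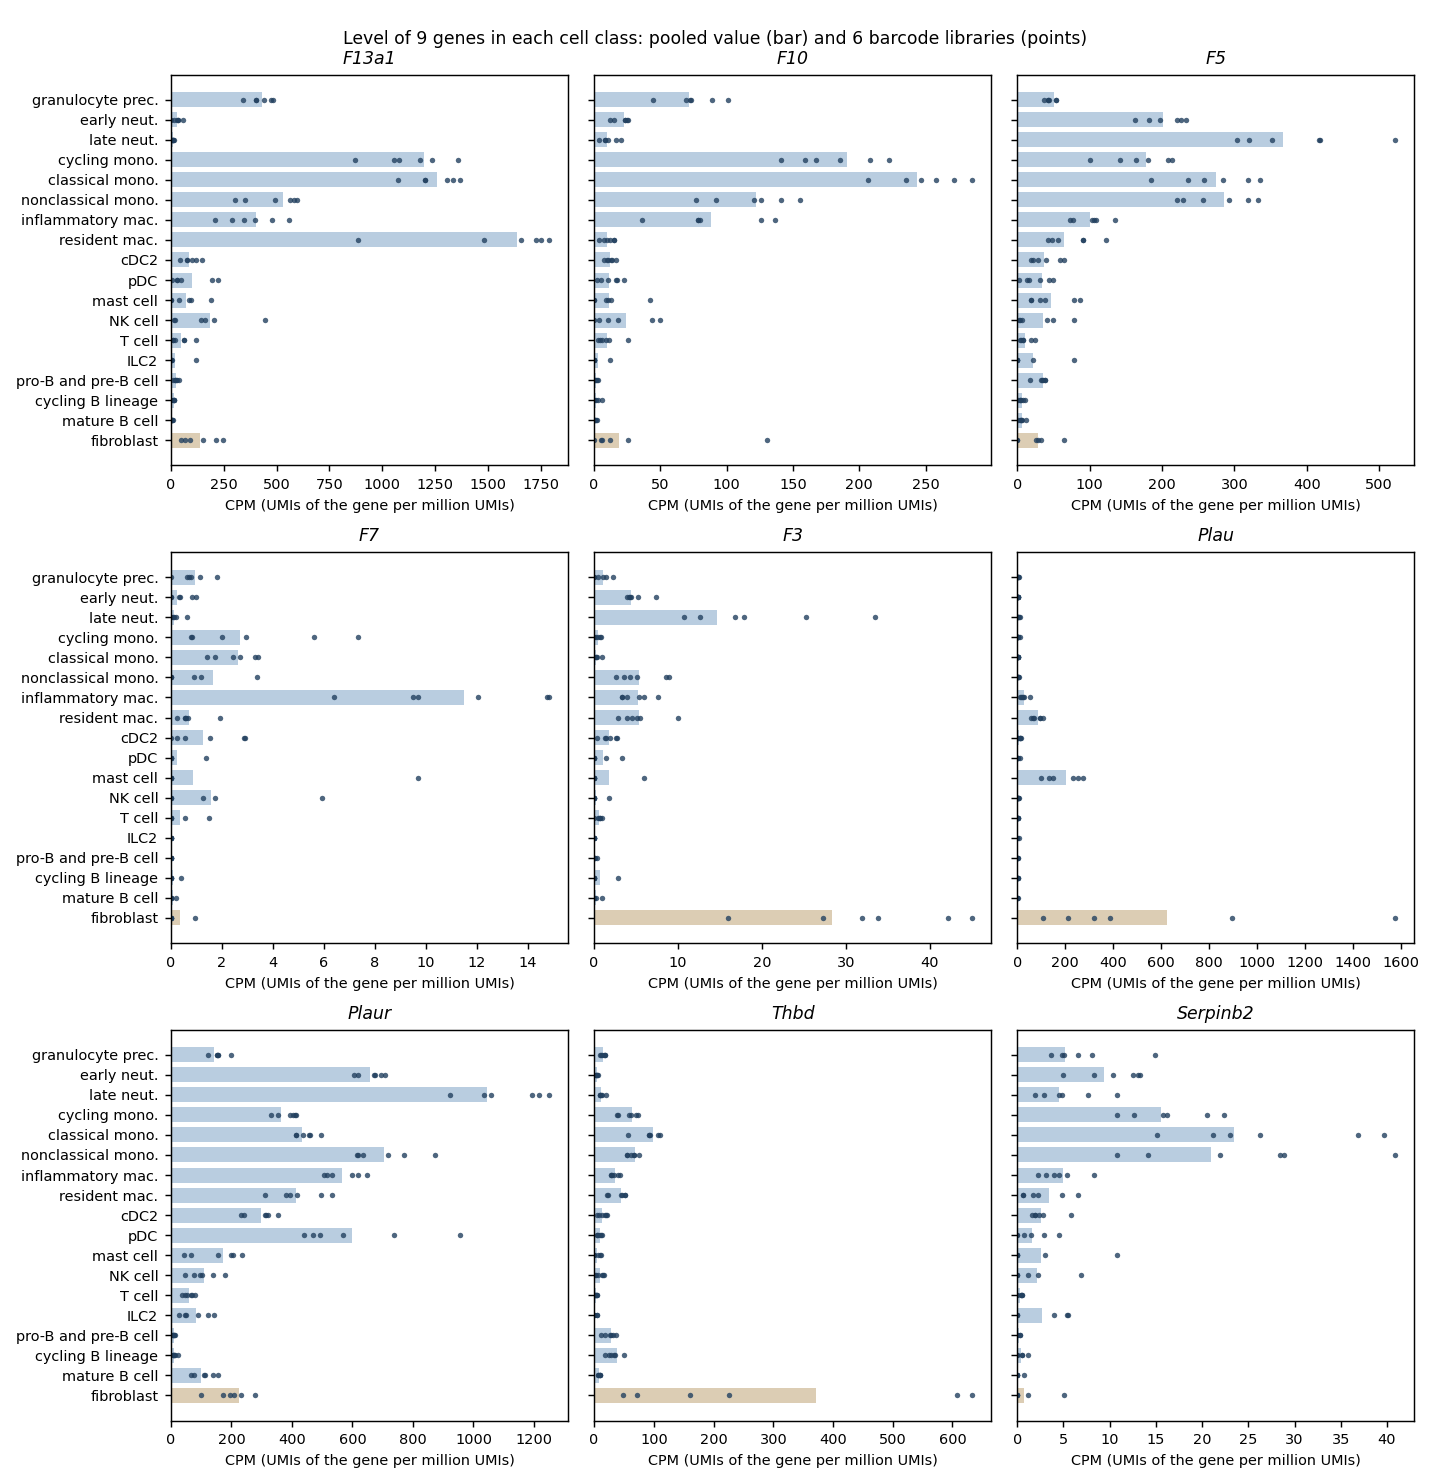
Level of each gene, in CPM (horizontal axis, a separate linear scale per gene), in 17 leukocyte classes and in fibroblast-like cells; bars are values pooled over all cells and points are the 6 barcode libraries. F13a1 is tall in resident macrophage-like cells (1639.5 CPM) and in classical (1258 CPM) and cycling (1198 CPM) monocyte-like cells, and F7 in inflammatory macrophage-like cells (11.5 CPM).

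F3 (ENSMUSG00000028128, chr3:121723537-121735048, plus strand) encodes the membrane receptor that starts the cascade. In late neutrophil-like cells its lowest, median and highest libraries were 10.8, 17.3 and 33.5 CPM, against 3.97, 4.34 and 7.33 CPM in early neutrophil-like cells. All 6 libraries were higher in the late class, and the ranges did not overlap. A UMI of F3 was seen in 6.86% of late and 7.62% of the deeper early neutrophil-like cells, or 3.60% and 1.39% once each cell was thinned to 3000 UMIs. The unthinned background was 0.132% in mature B cell-like cells and 0.589% in those like T cells. In classical monocyte-like cells F3 was at 0.218 CPM, from 8 UMIs. The fibroblast-like cells reached 28.3 CPM [22.4 to 35.3], with libraries from 15.9 to 45.1 CPM that overlapped the late neutrophil-like cells. At a finer cluster setting (resolution 2.0), a group of 974 shallow cells led by Csf1, Ccrl2 and Ptgs2, which stayed unnamed, had 39.4 CPM (24.8 to 75.6 CPM over libraries), beside 17252 CPM of summed neutrophil markers. There, a cluster led by Mmp8, Ltf and Ifitm6 (1603 cells) was named early neutrophil-like, whereas the Mmp8-led cluster of the main setting (2250 cells) was late. The cells they share were not counted.

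The F3 promoter is shown with that of Plaur, since both genes were higher in late neutrophil-like than in classical monocyte-like cells, and each held TGANTCA. The open base N admits TGAGTCA and TGACTCA, the binding letters of AP-1 (Fos and Jun factors), but also TGAATCA, which departs from them. The motifs were searched on both strands in the 250 bases before the start. Of 32536 promoters of this length, 6.73% held TGANTCA, 23.4% GAGGAA, the core letters of PU.1 sites, and 36.8% TTNNGNAA, a C/EBP-type motif. F3 held TGANTCA in 2 places, as TGAATCA and as TGAGTCA. Plaur held 1 TGANTCA, as TGACTCA, 2 GAGGAA and 1 TTNNGNAA. Of the 7 members matched in the promoter table, 3 held each motif. The third with TGANTCA was Serpinb2, as TGAATCA, which was higher in the monocytes (23.4 against 4.50 CPM). F5, which was also highest in late neutrophil-like cells, held none of these motifs in this window. Capitals mark the motifs in RefSeq sequence of GRCm38.p6, written 5′ to 3′, and a match describes the letters and not the binding of a factor.

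F3 (chr3:121723287-121723536, plus strand): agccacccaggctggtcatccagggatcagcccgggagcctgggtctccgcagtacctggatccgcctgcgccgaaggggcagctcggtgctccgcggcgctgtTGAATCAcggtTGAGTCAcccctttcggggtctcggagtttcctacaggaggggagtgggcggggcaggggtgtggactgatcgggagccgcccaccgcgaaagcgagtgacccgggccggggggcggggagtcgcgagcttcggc

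Plaur (chr7:24462233-24462482, plus strand): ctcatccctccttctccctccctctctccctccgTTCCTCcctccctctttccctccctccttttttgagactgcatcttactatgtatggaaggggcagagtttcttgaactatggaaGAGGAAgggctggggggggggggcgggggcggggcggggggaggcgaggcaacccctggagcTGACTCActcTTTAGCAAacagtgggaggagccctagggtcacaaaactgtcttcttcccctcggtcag

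F7 and F10, next to each other on chromosome 8, differed in the classes that held their UMIs. F7 (ENSMUSG00000031443, chr8:13026034-13035809, plus strand) ends 1498 bases before F10 (ENSMUSG00000031444, chr8:13037308-13056676, plus strand) begins. F7, which encodes the partner of tissue factor, was rare, with 1443 UMIs in the whole table, and inflammatory macrophage-like cells held 77.6% of them. Its lowest, median and highest libraries there were 6.39, 10.9 and 14.8 CPM. Classical monocyte-like cells had 2.61 CPM (libraries 1.40 to 3.40 CPM), below the macrophage class in 6 of 6 libraries with no overlap. Resident macrophage-like cells had 0.700 CPM and late neutrophil-like cells 0.125 CPM. A UMI of F7 was found in 11.96% of inflammatory macrophage-like cells and in 0.0440% of mature B cell-like cells. No UMI was seen in the 2657 pro-B and pre-B cell-like cells, and a floor of 3 counts over the class, used here in place of the Poisson bound, allows a level of up to 0.170 CPM.

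F10 encodes the inactive form of the protease that makes thrombin. Its libraries in classical monocyte-like cells were 207, 252 and 285 CPM, and 83.9% of these cells had a UMI. Cycling monocyte-like cells followed with 190.4 CPM (libraries 141 to 222 CPM), and the ranges overlapped. Inflammatory macrophage-like cells had 88.5 CPM (libraries 35.8 to 136 CPM), under the classical monocytes in 6 of 6 libraries. Resident macrophage-like cells had 10.1 CPM (libraries 3.48 to 15.3 CPM), with no overlap with the inflammatory class. The background was 0.396% of mature B cell-like cells with a UMI.

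Within inflammatory macrophage-like cells, the pooled order of finer clusters also differed between the neighbors. In the cluster led by Arg1, Pdpn and Spp1 (1156 cells), F7 stood at 19.5 CPM and F10 at 68.7 CPM. In the cluster led by Cxcl9, Ly6i and Cxcl10 (910 cells), F7 stood at 10.4 CPM and F10 at 173 CPM. The library ranges overlapped for F7, at 4.86 to 36.8 CPM against 1.48 to 15.1 CPM, and for F10, at 21.8 to 151 CPM against 60.6 to 248 CPM. Summed neutrophil markers were at 1107 and 2406 CPM in these clusters.

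The promoters of this neighboring pair are printed for comparison. The F7 promoter had 1 match of GAGGAA, and the F10 promoter had none of the 3 motifs in this window.

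F7 (chr8:13025784-13026033, plus strand): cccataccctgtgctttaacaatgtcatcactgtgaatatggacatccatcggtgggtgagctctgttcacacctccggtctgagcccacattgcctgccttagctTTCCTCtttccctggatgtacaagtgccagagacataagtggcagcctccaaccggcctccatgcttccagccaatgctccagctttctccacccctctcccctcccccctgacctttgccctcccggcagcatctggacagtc

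F10 (chr8:13037058-13037307, plus strand): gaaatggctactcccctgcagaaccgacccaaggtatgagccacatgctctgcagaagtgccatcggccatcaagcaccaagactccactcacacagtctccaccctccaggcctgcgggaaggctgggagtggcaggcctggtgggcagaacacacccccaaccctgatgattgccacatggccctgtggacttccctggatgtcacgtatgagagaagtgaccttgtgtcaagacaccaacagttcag

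**Figure D2:**
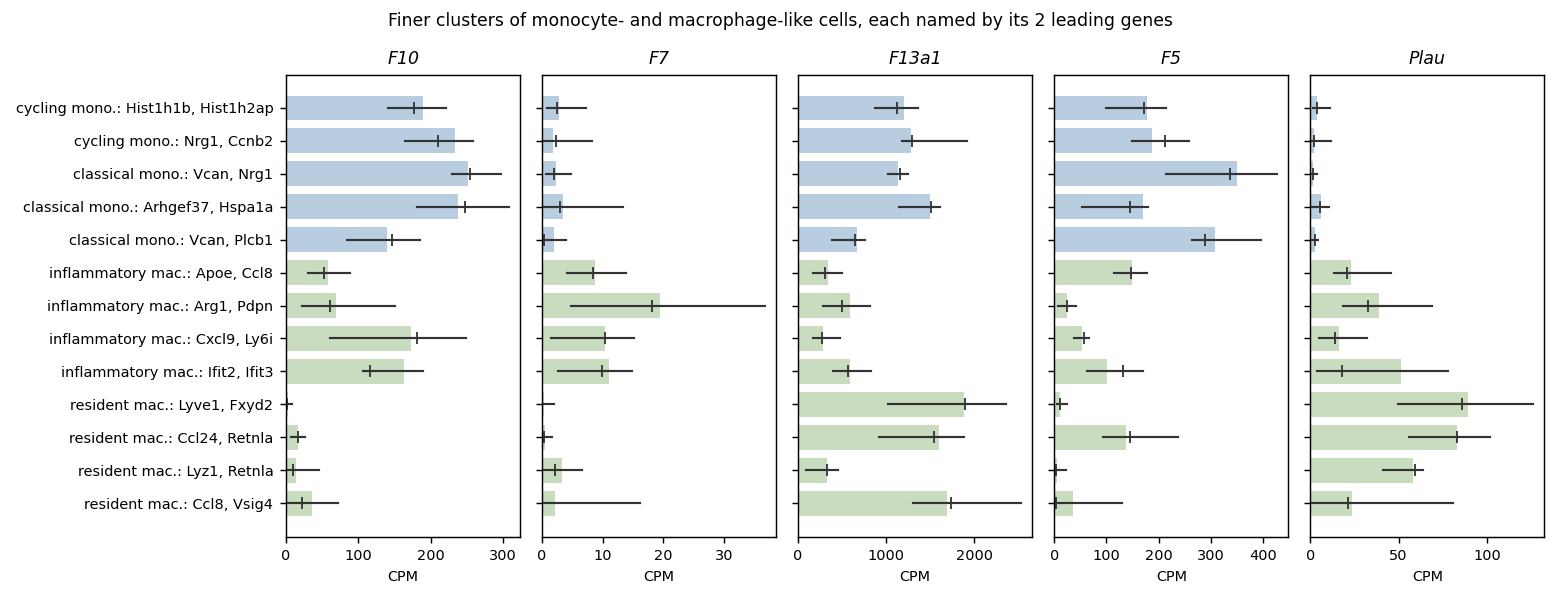
Level of F10, F7, F13a1, F5 and Plau (CPM, linear axis) in the finer clusters of monocyte-like (blue) and macrophage-like (green) cells, each labelled by its class and leading genes; bars are pooled values, lines run from the lowest to the highest library and ticks mark the median library. F7 peaks in the Arg1 cluster (19.5 CPM), where F10 (68.7 CPM) is below its pooled level in the Cxcl9 cluster (173 CPM).

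F5 (ENSMUSG00000026579, chr1:164151838-164220277, plus strand) encodes the cofactor of factor X and was found in granulocytes and monocytes. Late neutrophil-like cells ranged over 304, 385 and 522 CPM, and early ones over 163, 209 and 233 CPM. The late class was higher in 6 of 6 libraries with no overlap, and granulocyte precursor-like cells had 50.7 CPM. By cluster, the early one led by Ltf (217 to 286 CPM) overlapped the late one led by Mmp8 (253 to 497 CPM). Classical monocyte-like cells had 274 CPM (libraries 185 to 335 CPM), below the late neutrophils of the same library in 6 of 6, although the ranges overlapped. Among the classical monocytes, the cluster led by Vcan, Nrg1 and Plcb1 (1617 cells) had 325 CPM, and the one led by Arhgef37 and the heat shock gene Hspa1a (725 cells) had 168 CPM, with library ranges of 213 to 393 CPM and 117 to 177 CPM that did not overlap. F5 was also seen in pro-B and pre-B cell-like cells at 34.8 CPM, where 11.3% of cells had a UMI, against 2.24% of mature B cell-like cells. The start of F5 overlaps Gm16548, a noncoding gene on the other strand.

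F13a1 (ENSMUSG00000039109, chr13:36867178-37050244, minus strand) encodes the part of factor XIII that cross-links fibrin. Resident macrophage-like cells ranged over 884, 1693 and 1791 CPM, and 90.6% of them had a UMI. Classical monocyte-like cells ranged over 1075, 1257 and 1366 CPM with 97.7% of cells positive, and cycling monocyte-like cells over 872, 1129 and 1357 CPM. The ranges of these 3 classes overlapped, so their order was not set apart from the spread between libraries. Inflammatory macrophage-like cells lay below them at 207, 373 and 559.5 CPM, with no overlap with either classical monocytes or resident macrophages. The resident macrophages, classical monocytes, inflammatory macrophages and cycling monocytes held 28.5%, 22.5%, 19.0% and 15.1% of all F13a1 UMIs. F13a1 is also known from platelets, and the summed CPM of 6 megakaryocyte markers was 3.98 in the resident macrophages and 0.925 in the classical monocytes. The part of platelets in the F13a1 levels was not tested.

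F13a1 differed widely between finer clusters of 1 class. Among resident macrophages, the Lyve1, Fxyd2 and Aqp1 cluster (1163 cells) had 1888 CPM, the Ccl24, Retnla and Ednrb cluster (951 cells) 1594 CPM, the Ccl8, Vsig4 and Cbr2 cluster (144 cells) 1687 CPM, and the Lyz1 and Retnla cluster (297 cells) 329 CPM. The libraries of the last ran over 94.5 to 454 CPM and did not overlap those of the Lyve1 cluster, 1020.4 to 2356 CPM. Granulocyte precursor-like cells divided into a cluster led by Elane, Mpo and Prtn3 with 44.1 CPM (16.1 to 58.3 CPM over libraries) and a cluster led by Prg2, Mpo and Ctsg with 828 CPM (690.0 to 956 CPM). Summed neutrophil markers were at 38398 and 1336 CPM in these, and F10 at 74.8 and 58.4 CPM with overlapping ranges. Summed markers of classical monocytes were at 4030 and 5485 CPM in the same clusters, against 6773 CPM in classical monocyte-like cells. The part of such cells in these levels was not tested.

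In some other classes, a few cells carried most of the F13a1 UMIs. NK cell-like cells had 184 CPM (libraries 15.7 to 445 CPM), and 8.57% of them, those with at least 5 UMIs, held 98.8% of the F13a1 UMIs of the class. The summed markers of classical monocytes stood at 3616 CPM in those cells and at 644 CPM in NK cell-like cells without F13a1, and the median depth was 33407 against 8843 UMIs. T cell-like cells (47.7 CPM) showed the same, with 91.2% of UMIs in 2.61% of cells and monocyte markers of 3446 against 891 CPM. In mature B cell-like cells F13a1 was at 3.25 CPM. The part of the monocyte markers and depth in these values was not tested.

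**Figure D3:**
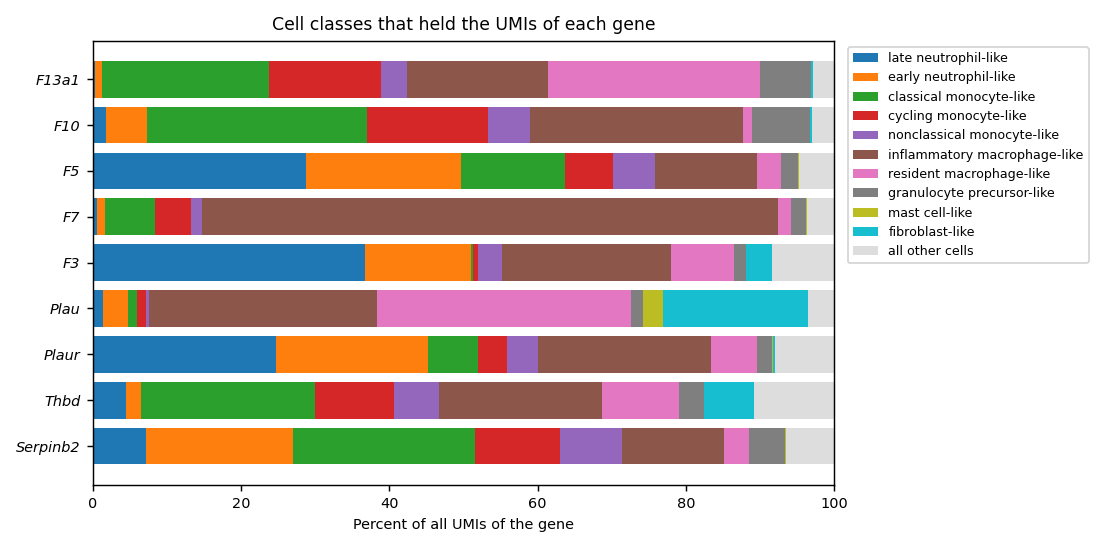
Percent of all UMIs of each gene (horizontal axis) that lay in each cell class (colors) of the whole table; gray gathers the other cells. Inflammatory macrophage-like cells held 77.6% of F7, late neutrophil-like cells 36.7% of F3 and 28.8% of F5, and fibroblast-like cells 19.6% of Plau although they were 0.489% of the cells.

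Plau (ENSMUSG00000021822, chr14:20836660-20843385, plus strand), the protease that releases plasmin, was at 625 CPM [596 to 656] in fibroblast-like cells, where its libraries spread over 106 to 1578 CPM with 9 to 63 cells each. Mast cell-like cells ranged over 97.1, 190.4 and 275 CPM and resident macrophage-like cells over 55.4, 83.2 and 109 CPM, and these ranges overlapped. Inflammatory macrophage-like cells ranged over 13.2, 21.9 and 55.1 CPM, below the resident class in 6 of 6 libraries with no overlap. Classical monocyte-like and late neutrophil-like cells had little, at 3.05 and 2.13 CPM. A UMI of Plau was in 51.8% of mast cell-like cells, 39.2% of resident and 24.8% of inflammatory macrophage-like cells, and in 0.308% of mature B cell-like cells.

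Plaur (ENSMUSG00000046223, chr7:24462484-24475968, plus strand), which anchors urokinase at the cell surface, was highest in neutrophils. Late neutrophil-like cells ranged over 923, 1124 and 1250.1 CPM with a UMI in 90.7% of cells. In the deeper early clusters led by Ltf and by Fcnb, 98.9% and 98.2% of cells had a UMI. Early neutrophil-like cells ranged over 604, 672 and 707 CPM and granulocyte precursor-like cells over 123, 154 and 198 CPM, and none of these 3 ranges overlapped. Plasmacytoid dendritic cell-like cells had 597 CPM (libraries 441 to 956 CPM) with 3878 CPM of neutrophil markers, and 569.9 CPM without the 18 cells above 10000 CPM of these markers. B cells differed among themselves. The mature B cell-like cluster led by Bank1, Ighd and Fcer2a (837 cells) had 263 CPM (227 to 303 CPM over libraries) with 56.6% of cells positive, and the one led by Ms4a1 and Sox5 (1435 cells) had 12.6 CPM (7.22 to 23.0 CPM) with 6.48% positive. Pro-B and pre-B cell-like cells had 10.1 CPM.

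**Figure D4:**
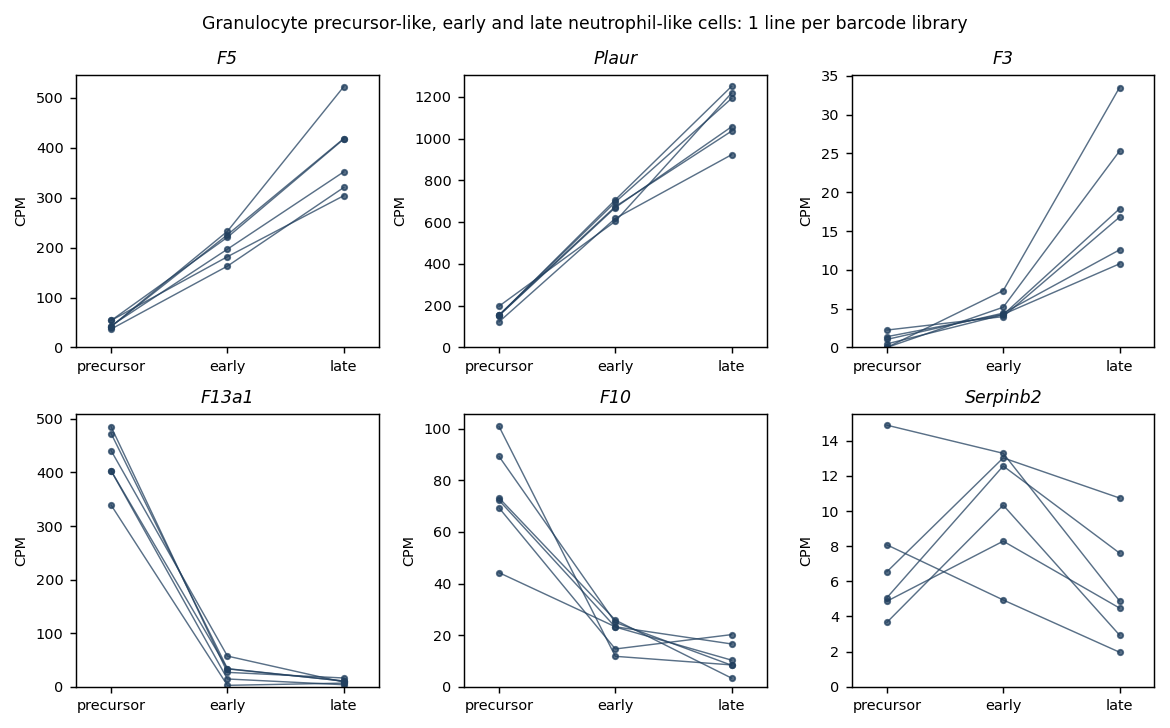
CPM (vertical axis, linear) of 6 genes in granulocyte precursor-like, early neutrophil-like and late neutrophil-like cells, with 1 line for each of the 6 libraries. Pooled F5, Plaur and F3 are lowest in precursors and highest in late cells, whereas pooled F13a1 and F10 are highest in precursors (432 and 71.6 CPM). F13a1 of the precursors was far higher in their Prg2-led than in their Elane-led finer cluster.

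Thbd (ENSMUSG00000074743, chr2:148404466-148408188, minus strand), a gene of 1 exon, encodes the receptor that redirects thrombin. It was at 371 CPM [349 to 395] in fibroblast-like cells (libraries 49.1 to 633 CPM). In classical monocyte-like cells it ranged over 57.5, 92.6 and 110.0 CPM with 50.6% of cells positive. Their Arhgef37 and Hspa1a cluster had 148 CPM and their Vcan and Nrg1 cluster 74.5 CPM, with overlapping library ranges of 61.8 to 299.5 CPM and 57.3 to 89.0 CPM. Thbd was also present in the B lineage, at 37.6 CPM in cycling B lineage-like cells (libraries 18.5 to 49.9 CPM) and 28.7 CPM in pro-B and pre-B cell-like cells (libraries 11.7 to 36.6 CPM), against 8.57 CPM in mature B cell-like cells (libraries 6.11 to 9.80 CPM). Neither of the former ranges overlapped that of the whole mature class. Its Ms4a1 and Sox5 cluster, at 11.8 CPM (8.97 to 14.8 CPM over libraries), did overlap the pro-B and pre-B cell-like cells. Its Bank1, Ighd and Fcer2a cluster was at 2.36 CPM (0 to 4.93 CPM).

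Serpinb2 (ENSMUSG00000062345, chr1:107511423-107535478, plus strand), which encodes an inhibitor of urokinase, was highest in monocytes. Classical monocyte-like cells ranged over 15.2, 24.7 and 39.7 CPM, nonclassical ones over 10.8, 25.2 and 40.9 CPM and cycling ones over 10.8, 16.01 and 22.4 CPM, and the ranges overlapped. Early neutrophil-like cells had 9.44 CPM and late ones 4.50 CPM, with the early class higher in 6 of 6 libraries but overlapping ranges. The 53 basophil-like cells had 180.5 CPM, from 94 UMIs in 13.2% of the cells, and their libraries ran from 0 to 823 CPM over 2 to 26 cells each. Exons of the gene lie within the span of Serpinb10 on the same strand. Whether the genes share exon bases, and whether reads were lost there, was not checked, which leaves its level uncertain.

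Whole class comparisons placed the members against all genes. A gene was counted as apart where all 6 library values of 1 class lay above those of the other, among genes of at least 5 CPM in either class. Between classical monocyte-like and late neutrophil-like cells, 6 of 7 members were apart, against 78.4% of all 9227 genes. F13a1, F10, Thbd and Serpinb2 were higher in the monocytes, and F3 and Plaur in the neutrophils. Between late and early neutrophil-like cells, 4 of 7 were apart (F5, F3, Plaur and Thbd, each higher in late cells), against 62.0% of all genes. Both counts are near their background. Between inflammatory macrophage-like and classical monocyte-like cells, 9 of 9 were apart, against 35.1% of all genes. F7, F3, Plau and Plaur were higher in the macrophages, and F13a1, F10, F5, Thbd and Serpinb2 in the monocytes. In the macrophage cluster led by Mmp19 and Cxcl9, however, F3 (0.968 CPM) and Plaur (440 CPM) overlapped the monocyte libraries. The macrophage cluster led by Ccl8 and Apoe had 8.48 and 664 CPM. Summed neutrophil markers were at 1510 and 21684 CPM in these clusters. F7 and Plau were above the monocyte range in both. Between inflammatory and resident macrophage-like cells, 4 of 8 were apart, against 29.0%, with F10 and F7 higher in the inflammatory class and F13a1 and Plau in the resident class. Within libraries, F5 and Plaur were also higher in the inflammatory class in 6 of 6, although their ranges overlapped. These counts are descriptions, and the shares of all genes were not matched for level. Against classical monocytes, F7, F3 and Plau reached 5 CPM only in the inflammatory macrophages, and Serpinb2 only in the monocytes. Such members entered the count through the class where they were high.

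In both macrophage classes, F5, F3, Plaur and Serpinb2 were higher in the cells with many neutrophil markers. The summed CPM of all 16 neutrophil markers was 12922 in inflammatory (libraries 7771 to 24532) and 8871 in resident macrophage-like cells (libraries 4423 to 18815), against 63534 in late neutrophil-like and 199 in mature B cell-like cells. In the 2074 resident macrophage-like cells at or under 10000 CPM of these markers F5 was at 28.6 CPM, and in the 372 cells above it at 196 CPM. The level of the whole class, 64.8 CPM, was 2.27 times that of the former. Plaur was at 317 and 755 CPM and F3 at 4.04 and 10.1 CPM in the same groups of cells. Serpinb2 was at 1.86 and 9.03 CPM, and its whole class level was 1.84 times that of the cells at or under the limit. In the inflammatory class F5 was at 60.9 CPM in the 3240 cells at or under the limit and at 175 CPM in the 1084 above it, and the whole class had 1.65 times the former, while Serpinb2 was at 4.38 and 5.97 CPM. F13a1, F10, F7 and Plau were instead higher in the cells at or under the limit in both classes, F10 of the inflammatory class with 107 against 53.6 CPM. Thbd was higher in these cells in the inflammatory class (37.6 against 28.9 CPM) and lower in the resident class (42.7 against 52.7 CPM). By library, F5 was highest in library 2 of both classes (135 and 122 CPM), which had the most neutrophil markers. The other libraries did not all keep this order. Inflammatory F5 was 106 CPM in library 3, with 8952 CPM of markers, and 73.2 CPM in library 1, with 10853 CPM. Plaur was highest in library 5 of both classes (647 and 533 CPM). F3 and Serpinb2 were not highest in library 2 either. Resident F3 was 4.46 CPM in library 2 and 9.96 CPM in library 3, which had the fewest markers. Inflammatory Serpinb2 was 4.47 CPM in library 2 and 8.30 CPM in library 1.

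Without the cells above the limit, 7 of 8 members were apart between inflammatory macrophages and classical monocytes, against 33.2% of all genes. Plaur no longer was, at 452 to 550.1 CPM against 408 to 495 CPM over libraries, and F3 was under 5 CPM in both classes. Between inflammatory and resident macrophages 4 of 7 were apart, against 32.8% of all genes, with Plaur now higher in the inflammatory class and the ranges of Plau overlapping. F13a1, F10 and F7 were apart with and without these cells. The part of the neutrophil markers in F5, F3, Plaur and Serpinb2 of whole classes was not tested further.

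**Figure D5:**
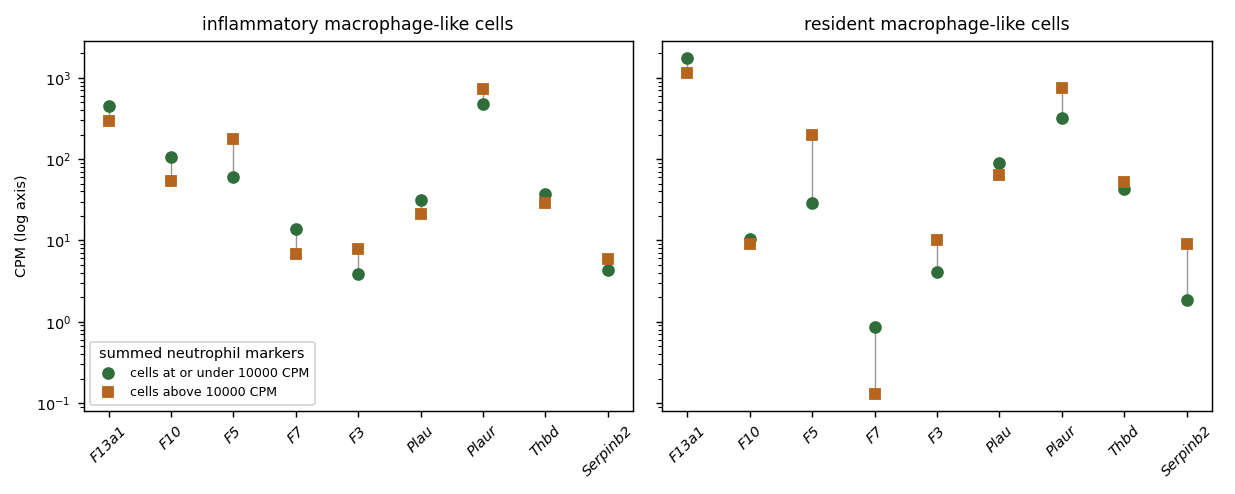
CPM of each gene on a log axis in inflammatory (left) and resident (right) macrophage-like cells whose summed neutrophil markers were at or under 10000 CPM (green circles) or above it (orange squares); gray lines join both groups of cells. In the resident class F5 is at 28.6 and 196 CPM and F13a1 at 1775 and 1150.5 CPM.

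The nonclassical monocyte-like class of 684 cells was mixed, with 40526 CPM of neutrophil markers. Its F13a1 level of 531 CPM became 78.5 CPM at the finer setting, where the cluster led by Adgre4, Pparg and Ace held 229 cells, while F10 went from 122 to 76.3 CPM and Plaur from 705 to 690.2 CPM. That smaller cluster still had 32021 CPM of neutrophil markers. Another cluster of the finer setting, 443 cells led by Vcan, Plcb1 and Arhgef37 and named classical monocyte-like, had 41021 CPM of them. How many of its cells belonged to the nonclassical class at the main setting was not counted. Of the whole class, 61.5% of cells were above 10000 CPM of these markers. In the 263 others F13a1 was at 701 CPM, F10 at 181 CPM and Plaur at 549 CPM. The F13a1 and F10 levels of this class thus went in opposite directions under the finer setting and without those cells, while Plaur was lower in both.

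Shares of positive cells depended on depth. Thinned to 3000 UMIs per cell, the share of classical monocyte-like cells with a UMI of F10 was 45.8%, that of late neutrophil-like cells with F5 51.6% and with Plaur 85.5%, and that of resident macrophage-like cells with F13a1 84.2%. The same share in mature B cell-like cells was 0.222% for F10, 1.53% for F5 and 0.873% for F13a1, but 18.1% for Plaur, whose B cell UMIs lay mainly in the Ighd cluster.

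Of 43 other genes of clotting and clot removal, 38 were in the table, and 15 of them reached 20 CPM in a leukocyte class, against 47.3% of all genes. The median of their highest leukocyte level was 7.52 CPM, against 15.99 CPM over all 20394 genes. S100a10 and Anxa2, which together form a plasminogen receptor, were highest in resident macrophage-like cells (1646 CPM) and in cDC2-like cells, a dendritic cell class (1148 CPM). Lrp1, which takes up protease and inhibitor complexes, was at 439.9 CPM in resident macrophage-like and 698 CPM in fibroblast-like cells. Its library ranges there, 372 to 511 CPM and 381 to 1103 CPM, overlapped. Fgl2, a prothrombinase, was at 243 CPM in inflammatory macrophage-like cells (libraries 92.7 to 357 CPM). In fibroblast-like cells it was at 535 CPM, with overlapping libraries of 75.1 to 797 CPM. The plasminogen receptor Plgrkt was highest in mast cell-like cells at 256 CPM. Eno1, another surface receptor of plasminogen, was at 250.4 CPM in granulocyte precursor-like cells, and near-identical copies of the gene could share its reads. Serpine2, an inhibitor of thrombin and urokinase, and Procr, the receptor of protein C, had their highest levels in fibroblast-like cells (520.2 and 209 CPM). Their highest leukocyte values were 40.9 CPM in granulocyte precursor-like and 18.7 CPM in cDC2-like cells. These are levels per class and not shares of all UMIs of the genes. Another 13 of the 38 stayed under 5 CPM in each ranked class, among them plasminogen itself (Plg, 5 UMIs in all) and prothrombin (F2).

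The genes whose class pattern was most like each member were sought by Pearson's r of log2(CPM + 1) over 18 classes, among 10317 genes of at least 20 CPM in 1 of them. The r values, in parentheses, describe these classes, which share libraries and depth. Closest to F13a1 were Lamp1 (0.93), Trem2 (0.92) and Fkbp1b (0.91), and closest to F10 were Nrg1 (0.95), Met (0.94) and Plod3 (0.92). F5 was most like Nfe2 (0.93), Tbc1d2 (0.93) and Aldh3b1 (0.92). Plaur was most like Pirb (0.93), Cybb (0.93) and Cib2 (0.92), and F3 most like Crispld2 (0.93), Rasip1 (0.93) and Snai1 (0.91). Plau lay closest to Copz2 (0.96), Pmp22 (0.96) and Ahnak2 (0.95), and Thbd closest to Ctdsp2 (0.87), Mrpl48 (0.83) and Clmp (0.80). For Serpinb2 they were Serpinb10 (0.96), Dgkg (0.91) and Fgd4 (0.91), the first of which is the gene it overlaps. F7 stayed under 20 CPM in every ranked class and was left out.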

How the data were processed

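CD45+ synovial cells were sorted and sequenced with the Chromium 3′ kit. The authors aligned reads to mm10 with Cell Ranger (version 7 in their processing notes), removed ambient RNA with SoupX and doublets with DoubletFinder, filtered cells with Seurat, and deposited 1 table of whole UMI counts for all 6 samples. Cell Ranger of this version counts intronic reads by default, and whether this was kept is not given in the sources used here, so UMIs of long genes such as F13a1 can include unspliced RNA. The deposited table stores 1724738 zeros, 1975 of them of the 9 genes, which were read as 0. No doublet caller was run here.

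Each cell was brought to a total of 10000 before the log, and 2000 variable genes gave 30 principal components, 15 neighbors and Leiden clusters at resolution 1.0 with scanpy 1.11.5, scikit-learn 1.9.0 and igraph 0.11.9. A cluster took the class with most markers among its 10, then 30, leading genes, if at least 3 markers were detected in 25% of its cells, and stayed unnamed where another class led or where it was shallow. This left 2 clusters (2.80% of cells) unnamed, led by hemoglobin genes and by Jchain and Igha. Classes of fewer than 100 cells were not ranked. Members, lists and markers were chosen with earlier results of these data known, and the naming rule was set after clusters were seen. The pathway genes named in the text were the 8 of the highest CPM in any class.

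CPM, Poisson intervals (scipy 1.17.1) and library ranges were computed from the deposited counts. The intervals, the comparison of library ranges and the thinning were checked on simulated data, whereas CPM, clustering and naming were not. No test between groups was run. Gene coordinates came from GENCODE vM21 (GRCm38), and promoters of 7 of the 9 genes from RefSeq.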

Additional observations from a re-analysis of the deposited data

How the results depend on the processing

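Of 133 values under other settings, 124 counted as the same, by rules that differed between kinds of value. A level counted if it moved by less than the standard deviation between libraries, and a share of positive cells if it stayed within their range. The rule for the number of genes keeping their highest class did not use the libraries. The same were 54 of 54 levels with a library left out, which share the other libraries with the main value, and 48 of 50 other levels. With cells assigned by a gate on each cell's own markers in place of clusters, F10 in classical monocyte-like cells was 189 CPM, Thbd 68.2 CPM and Serpinb2 15.1 CPM. Thinning to 3000 UMIs lowered the shares of positive cells by construction, to 45.8% for F10, 19.99% for Thbd and 6.13% for Serpinb2 in classical monocyte-like cells, 51.6% for F5, 3.60% for F3 and 85.5% for Plaur in late neutrophil-like cells, and 3.004% for F7 in inflammatory macrophage-like cells. The highest leukocyte class was kept by 9 of 9 genes at resolutions 0.5 and 2.0, without cells above 40000 or under 2000 UMIs and with each library left out, and by 8 of 9 with the gate and with the median over libraries, where Serpinb2 was highest in nonclassical monocyte-like cells. Leaving out each library gave 1603.17 to 1683.34 CPM for F13a1, 237.622 to 249.998 CPM for F10, 347.940 to 400.892 CPM for F5, 10.6715 to 12.1250 CPM for F7, 14.0047 to 16.8747 CPM for F3, 186.018 to 218.793 CPM for Plau, 1026.45 to 1091.01 CPM for Plaur, 93.6765 to 100.480 CPM for Thbd and 20.9594 to 27.1985 CPM for Serpinb2, each in its highest class. Leaving out cells above 10000 CPM of neutrophil markers was chosen after seeing the data. No paired analysis was possible because no label ties a barcode library to a sample, which holds for vehicle and PEPITEM, while cell classes were set side by side within the same 6 libraries. Rare transcripts such as F7 and F3 rest on few UMIs, and classes of fewer than 100 cells, such as basophil-like cells, allow no ranking.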
